A study of Capra hircus with 20 samples.

Results

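The miR-130 and miR-301 family is a group of microRNAs (miRNAs, short RNAs that lower the output of matching messenger RNAs) with a common seed, the stretch near the 5′ end that pairs with targets. Its members here were chosen by name: every row of the miRNA table called miR-130a, miR-130b, miR-301a, miR-301b or miR-454, on either arm of the hairpin. The rule found 9 of the 683 rows: both arms of miR-130a, miR-130b, miR-301a and miR-454, and miR-301b, whose row gives no arm. In the table they carry the goat prefix, as in chi-miR-130b-3p, chi-miR-301a-5p and chi-miR-301a-3p. Small RNA had been sequenced from the hypothalamus of Jining grey goats at 1, 60, 120 and 180 days after birth, with 5 animals at each of the 4 ages and 20 libraries in all. No genotype or treatment separates the groups, which the labels tell apart by age alone, and all animals were kept under 1 regime with free food and water. The sample labels give no batch, so a batch that ran with age could not be told apart from age. The samples were bulk tissue of the hypothalamus, the part of the brain that drives puberty, so fewer cells of a type and less RNA per cell cannot be told apart.

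A miRNA hairpin is cut into 2 arms, 5p and 3p, of which one is usually kept as the guide strand and the other is mostly degraded. In this family the 3p arms carry the shared seed and are generally the guide strands in mammals. In the seed family miR-130 is known as a repressor of the fat-cell regulator PPARG, and the family is linked to cell growth, hypoxia and vessel formation. The 5p arms have other seeds. The goat RefSeq gene table for assembly ARS1.2 lists all 5 hairpin genes. It places MIR301A and MIR454 within the span of SKA2, a gene of the mitotic spindle, and has YPEL4 and CLP1 as the nearest genes to MIR130A.

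Levels are given in RPM, a miRNA's reads scaled to a fixed total of miRNA reads in each library and not divided by length. The libraries held between 4017937 and 8324880 miRNA reads (median 6978196). In them 3 reads, taken as the floor, amount to 0.360 to 0.747 RPM, which covers counting error only, because PCR copies are not independent molecules. One library, replicate 2 of day 1, stood apart: it was the shallowest, and Spearman's rho between it and each other library had a median of 0.891 (0.916 in the library next above it). The neuron marker list (8 of 12 names in the table) summed to between 118681 and 478219 RPM over all libraries, and none of its measured markers was at 0.

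Together the 9 rows took 0.0166% of all miRNA reads. The highest mean level belonged to miR-130b-5p, at 98.4 ± 76.1 RPM (SD, n = 20), rank 172 of the 683 rows. miR-454-3p followed at 33.8 ± 17.2 RPM, then miR-130a-3p at 19.8 ± 14.99 RPM. The partner strands miR-301a-5p and miR-454-5p lay at 8.88 ± 5.64 and 7.29 ± 3.95 RPM, and miR-130b-3p at 3.92 ± 5.00 RPM. Near the floor were miR-301a-3p at 0.979 ± 0.858 RPM and miR-130a-5p at 0.964 ± 0.610 RPM. miR-301b, at 0.227 ± 0.295 RPM, reached 1 RPM in 1 library and was read 30 times in all. The test across miRNAs took rows with at least 1 RPM in at least 5 libraries, so 8 of the 9 members were tested, among 414 miRNAs.

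**Figure D1:**
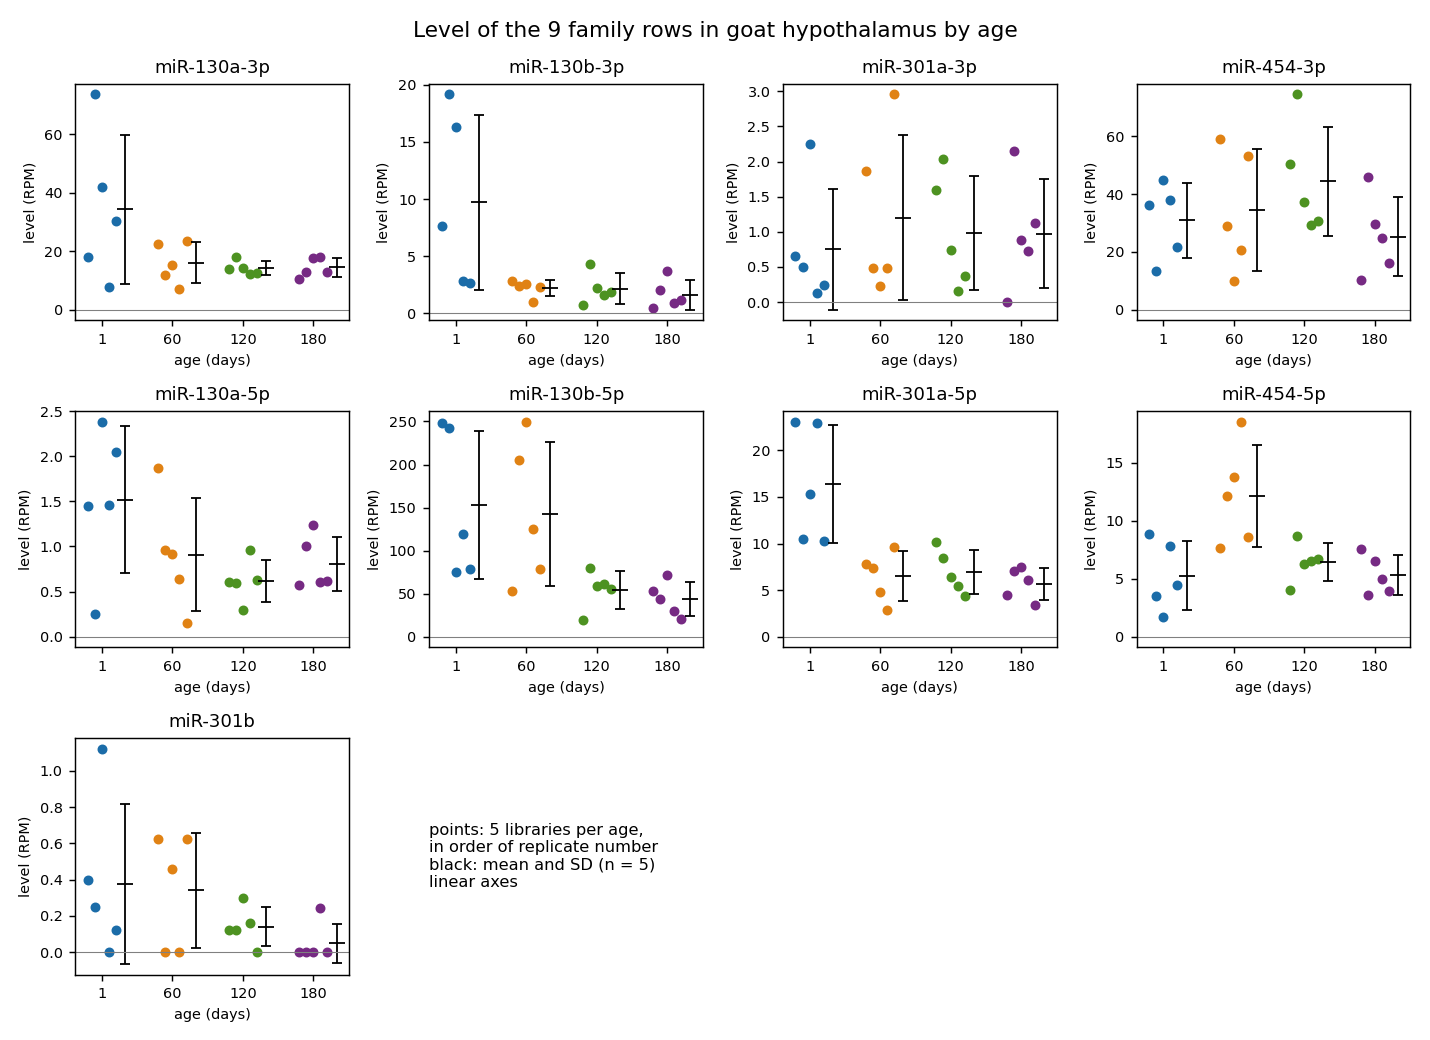
Level in RPM (y axes, linear, each with its own scale) of the 9 family rows at 4 ages (x axes, days). Points are the 5 libraries of an age and the black marks the mean and SD. miR-301a-5p is above 10 RPM in all 5 day-1 libraries, and miR-130b-3p spreads from 2.66 to 19.2 RPM on day 1.

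miR-130b-3p, a seed-bearing arm, was the member that passed the test: it fell between day 1 and day 180. On day 1 replicates 1 to 5 held 7.65, 19.2, 16.3, 2.80 and 2.66 RPM. On day 60 they held 2.81, 2.40, 2.53, 0.960 and 2.33 RPM, and on day 120 0.734, 4.32, 2.24, 1.60 and 1.87 RPM. On day 180 they held 0.430, 2.00, 3.72, 0.850 and 1.12 RPM. So 3 day-1 libraries lay above every later one, while the other 2 day-1 libraries lay inside the later range, and the ages overlapped. The levels rest on few reads: 22 to 116 per library on day 1, 6 to 18 on day 60, 6 to 36 on day 120 and 3 to 21 on day 180. Replicate 1 of day 180 lay at the floor of 3 reads.

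The mean of miR-130b-3p went from 9.71 ± 7.65 RPM on day 1 (SD, n = 5 at each age) to 2.20 ± 0.719, 2.15 ± 1.33 and 1.62 ± 1.30 RPM. The mean on day 1 was 5.98 times that on day 180. On the scale of log2(RPM + 1), where changes of low miRNAs come out too small, it fell by 1.81 from day 1 to day 180 (SE 0.47, limma adjusted p = 0.0395). All 5 day-180 libraries lay below the mean of day 1. At that comparison 3.38% of the 414 tested miRNAs were called and 2.66% were called lower, and 1 of the 8 tested members was. Against day 1, day 60 differed by -1.43 (SE 0.47, adjusted p = 0.0756) and day 120 by -1.51 (SE 0.47, adjusted p = 0.0709), neither past the threshold of 0.05. Between the 3 later ages the differences (-0.08, -0.30 and -0.38) were smaller than their SE of 0.47. Their unadjusted limma p ran from 0.429 to 0.862 and their adjusted p from 0.984 to 0.997.

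The call of miR-130b-3p depended on single libraries: it held in 13 of 20 fits that left out 1 library each. Most of these 13 left out a day-60 or day-120 library, which cannot move the difference (-1.81), only its spread. Among fits without a library of the ages compared, it held only without replicate 4 or 5 of day 1 (adjusted p = 0.0108 and 0.00897) or replicate 2 or 3 of day 180 (0.0431 and 0.0175). Removing replicate 1 (adjusted p = 0.0719), 2 (0.117) or 3 (0.0981) of day 1, replicate 5 of day 120 (0.0505), or replicate 1 (0.121), 4 (0.0878) or 5 (0.072) of day 180 ended it, with a change between -1.49 and -1.81 in these 7 fits. It also ended with a pseudocount of 0.1 (adjusted p = 0.0505), without a filter on low values (0.0657) and with only the ages compared (0.163), and held with edgeR and DESeq2, where adjusted p went down to 0.000986. The change was -1.65 with median-of-ratios scaling and -1.46 with quantile scaling, which moved the median of all tested miRNAs from -0.25 to -0.03 and 0.0076.

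The 3 measured markers of red blood cells were uneven among the day-1 libraries and did not share 1 order. miR-144-3p was at 1.06, 3.48, 2.24, 0 and 0 RPM in replicates 1 to 5 of day 1, with its 3 higher values in the 3 libraries that were high in miR-130b-3p. miR-144-5p was at 10.4, 2.49, 18.8, 4.26 and 8.81 RPM, lowest in replicate 2, where miR-130b-3p was highest. miR-451-5p was at 195, 457, 1531, 86.3 and 255 RPM, lower in replicate 1 than in replicate 5, while miR-130b-3p was higher there. Over the whole erythroid list (3 of 5 names in the table) the summed level ran from 90.5 to 1552 RPM (day 1), 149 to 290 RPM (day 60), 236 to 1338 RPM (day 120) and 182 to 349 RPM (day 180). None of the 3 was called between day 1 and a later age. Among 6 tested markers of multiciliated cells and choroid plexus (8 of 9 names in the table), miR-449a-5p fell from 19.5 ± 17.7 RPM on day 1 to 0.686 ± 0.482 RPM on day 180 (SD, n = 5; log2 change -3.16, SE 0.59, limma adjusted p = 0.00145). It was the 1 marker of the 6 called at that comparison, where 5 lay below 0 and 1 above. The one above was miR-204-5p (0.38, limma adjusted p = 0.69), and miR-34c-5p, at -1.96, was not called (adjusted p = 0.215). The summed level of that list ran from 2803 to 8234 RPM on day 1, 2368 to 11268 on day 60, 1508 to 7547 on day 120 and 2852 to 6469 on day 180, with miR-449a-5p, miR-449b-5p and miR-34b-5p at 0 in some libraries. The largest part of that sum was miR-204-5p, at 3105 ± 2158 RPM on day 1 and 3566 ± 851 RPM on day 180, so it says little about the other markers. The part of these markers in the fall of miR-130b-3p was not tested.

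miR-130b-5p, the partner strand from the same hairpin and the most abundant member, had close means on day 1 and day 60 and lower ones at both later ages. Its day-1 libraries held 248, 242, 74.6, 119 and 79.2 RPM, and its day-60 libraries 52.9, 206, 250, 125 and 78.3 RPM. On day 120 it stood at 18.95, 79.4, 58.3, 61.6 and 55.5 RPM, and on day 180 at 53.6, 43.7, 71.1, 30.1 and 20.9 RPM. Every day-180 library lay below every day-1 library, a separation that 2.9% of the tested miRNAs showed in that direction. Against day 1 the same separation held for 2.42% of tested miRNAs on day 60 and 3.38% on day 120.

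The means of miR-130b-5p were 153 ± 86.3, 142 ± 83.7, 54.8 ± 22.1 and 43.9 ± 19.7 RPM in order of age (SD, n = 5). Day 180 differed from day 1 by -1.71 on the log2 scale (SE 0.53, limma adjusted p = 0.0755) and from day 60 by -1.57 (SE 0.53, adjusted p = 0.845). Day 120 differed from day 60 by -1.27 (SE 0.53, limma adjusted p = 0.913) and from day 1 by -1.41 (SE 0.53, adjusted p = 0.12). The differences between day 60 and day 1 (-0.13) and between day 180 and day 120 (-0.30) were smaller than their SE. None of these passed the threshold.

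miR-301a-5p, the arm of the SKA2-hosted hairpin that does not carry the family seed, was higher in each day-1 library than in any of the 15 later ones. The day-1 libraries held 23.1, 10.5, 15.3, 22.9 and 10.3 RPM. The later libraries ranged from 2.88 to 9.65 RPM on day 60, from 4.36 to 10.1 on day 120 and from 3.36 to 7.43 on day 180, with medians of 7.35, 6.43 and 6.07 RPM. Of the 414 tested miRNAs, 1.45% lay in this way above all later libraries on day 1, and 1 of the 8 tested members did. The closest values were 10.3 RPM on day 1 and 10.1 RPM on day 120, so that the gap was narrow.

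For miR-301a-5p the model across all miRNAs gave differences of -1.22 (day 60), -1.10 (day 120) and -1.35 (day 180) from day 1, each with an SE of 0.41. limma's adjusted p was 0.0756, 0.12 and 0.0678, and none passed. In RPM the means were 16.4 ± 6.35, 6.50 ± 2.66, 6.96 ± 2.32 and 5.66 ± 1.73 in order of age (SD, n = 5), so that the day-1 mean was 2.90 times that of day 180. Between the later ages the differences stayed within 0.25 on the log2 scale.

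miR-301a-3p, which carries the family seed, was read between 0 and 19 times per library. Its day-1 libraries held 0.660, 0.498, 2.24, 0.122 and 0.241 RPM, and its day-180 libraries 0, 2.15, 0.885, 0.728 and 1.12 RPM. The library at 0, replicate 1 of day 180, allows a level of up to 0.430 RPM. Its mean was 0.753 ± 0.860, 1.203 ± 1.17, 0.983 ± 0.805 and 0.976 ± 0.777 RPM in order of age (SD, n = 5), and no difference was detectable at this depth (limma adjusted p from 0.735 to 0.997 over 6 comparisons between ages). miR-301b, from the other miR-301 gene, was at 0 in 1, 2, 1 and 4 of the 5 libraries in order of age, with a highest value of 1.12 RPM in replicate 3 of day 1. It was not tested.

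miR-454-3p, whose gene lies beside that of miR-301a within SKA2, was not called at any comparison between ages. Its means were 30.9 ± 12.9, 34.4 ± 21.1, 44.5 ± 18.8 and 25.3 ± 13.7 RPM in order of age (SD, n = 5). The libraries spread from 13.4 to 44.9 RPM on day 1, from 9.88 to 59.1 on day 60, from 29.3 to 74.6 on day 120 and from 10.3 to 45.8 on day 180. Its largest difference, day 180 against day 120, was -0.87 on the log2 scale (SE 0.52, limma unadjusted p = 0.109, adjusted p = 0.997).

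Its partner strand miR-454-5p had its highest mean on day 60, at 12.1 ± 4.39 RPM, against 5.25 ± 2.99 on day 1, 6.45 ± 1.64 on day 120 and 5.34 ± 1.71 on day 180 (SD, n = 5). The day-60 libraries held 7.64, 12.1, 13.8, 18.6 and 8.56 RPM, and the day-1 libraries 8.84, 3.48, 1.68, 7.80 and 4.47 RPM. All 5 day-60 libraries lay above the day-1 mean, but the ages overlapped. Day 60 was 1.16 above day 1 on the log2 scale (SE 0.41, limma adjusted p = 0.0877), and 0.725% of the tested miRNAs were called higher at that comparison. Day 180 lay 1.03 lower than day 60 (log2 difference -1.03, SE 0.41, adjusted p = 0.86), with all day-180 libraries below all day-60 libraries, as in 1.93% of tested miRNAs. miR-454-5p did not pass at either comparison.

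miR-130a-3p, a miRNA known from vessels and blood progenitors, was most variable on day 1, with 18.1, 73.7, 41.8, 7.80 and 30.3 RPM in replicates 1 to 5. Its highest value came from replicate 2, the library that stood apart. Later libraries lay between 7.04 and 23.5 RPM, and the SD went from 25.4 RPM on day 1 to 7.00, 2.33 and 3.29 RPM. Day 180 differed from day 1 by -0.88 on the log2 scale (SE 0.49, limma adjusted p = 0.31), and over 20 fits that left out 1 library each by -1.29 (without replicate 4 of day 1, adjusted p = 0.0827) to -0.52 (without replicate 2 of day 1, adjusted p = 0.582). The vessel marker list (4 of 4 names in the table) summed to between 30152 and 218887 RPM on day 1 and 33039 and 180960 RPM on day 180, and its part in these values was not tested. The largest part of that sum was miR-143-3p, at 79640 ± 77769 RPM on day 1 and 63434 ± 61428 RPM on day 180 (SD, n = 5). The sum therefore says little about the other markers, such as miR-126-3p, at 7639 ± 2963 and 7071 ± 1278 RPM.

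miR-130a-5p, the minor arm, had a mean of 1.52 ± 0.814 RPM on day 1 and of 0.909 ± 0.626, 0.619 ± 0.234 and 0.809 ± 0.297 RPM later (SD, n = 5), from 1 to 17 reads per library. limma's adjusted p was 0.295 or more at each comparison.

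**Figure D2:**
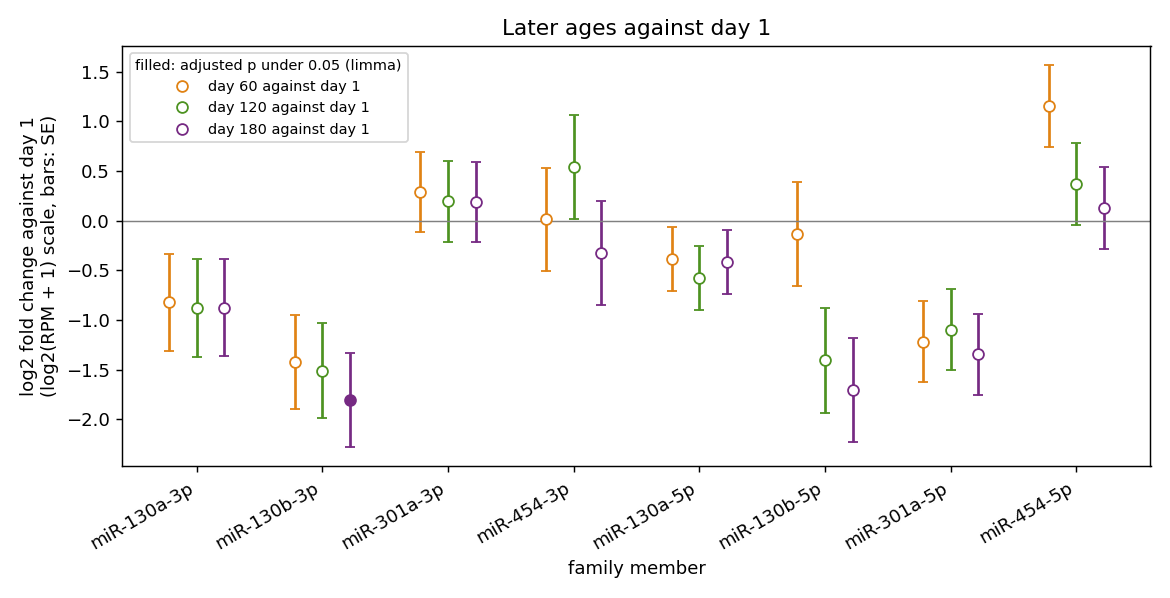
Log2 fold change of the 8 tested members at day 60, 120 and 180 against day 1 (y axis, log2(RPM + 1) scale, bars are SE, members on the x axis). Filled points pass an adjusted p of 0.05: miR-130b-3p at day 180, at -1.81. The 3 comparisons share the day-1 libraries.

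Over the 4 ages as a whole, no member passed limma's F test, with a smallest adjusted p of 0.0849 for miR-130b-3p and 0.094 for miR-130b-5p, where 1.93% of the tested miRNAs passed. At an unadjusted p under 0.05 in that test were 4 of the 8 members and 70 of the 414 tested miRNAs. Between day 60 and day 120, day 120 and day 180, and day 60 and day 180, limma, edgeR and DESeq2 called 0 of the 414 tested miRNAs each. At an unadjusted p under 0.05 limma had 13, 3 and 20 miRNAs in these comparisons, of which 1, 0 and 2 were members. Against day 1 the members' median log2 fold change was -0.26 on day 60, -0.73 on day 120 and -0.65 on day 180, beside -0.04, -0.12 and -0.25 over all tested miRNAs. Below 0 were 5, 5 and 6 of the 8 members, beside 53.4%, 56.3% and 62.6% of all tested miRNAs. Between the later ages 6 (day 60 to 120), 6 (day 120 to 180) and 8 (day 60 to 180) of the 8 members lay below 0, beside 47.6%, 66.2% and 62.1% of all tested miRNAs. Against day 1 limma called 3.86% of tested miRNAs on day 60 (3.14% lower, 0.725% higher) and 3.38% on day 120 (1.93% lower, 1.45% higher), and 0 of the members at either age.

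The arms of the hairpins were read in unequal amounts, and the major arm was not the same one throughout the family. The 3p arm of miR-130a exceeded its 5p arm in 20 of 20 libraries, and that of miR-454 in 19 of 20, with mean levels 20.5 and 4.63 times those of the 5p arm. In miR-130b and miR-301a it was the 5p arm that was higher in 20 of 20 libraries, 25.1 and 9.07 times the mean level of the 3p arm. The exception for miR-454 was a day-60 library, replicate 3, with a log2(3p/5p) ratio of -0.48. Differences in how well adapters join to each strand also enter such ratios, and that part was not tested.

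In miR-301a the log2(3p/5p) ratio averaged -5.05 ± 1.74 on day 1 (SD, n = 5), -2.94 ± 1.18 on day 60 and -3.29 ± 1.15 on day 120. On day 180 it was -2.36 ± 0.820 (n = 4), leaving out replicate 1, which had no 3p read. With 0 reads of 3p against 31 of 5p, that library would lie below the 4 kept. Leaving it out therefore raised the day-180 mean and widened its distance from day 1. The day-1 libraries spread from -7.55 to -2.77 and the day-180 libraries with a ratio from -3.07 to -1.58, so the ages overlapped. The 3p reads behind the lowest ratio numbered 1. In miR-130b the ratio averaged -4.24, -5.87, -4.75 and -5.01 in order of age, with SDs from 0.386 to 1.32. These ratios are descriptions and carry no test.

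**Figure D3:**
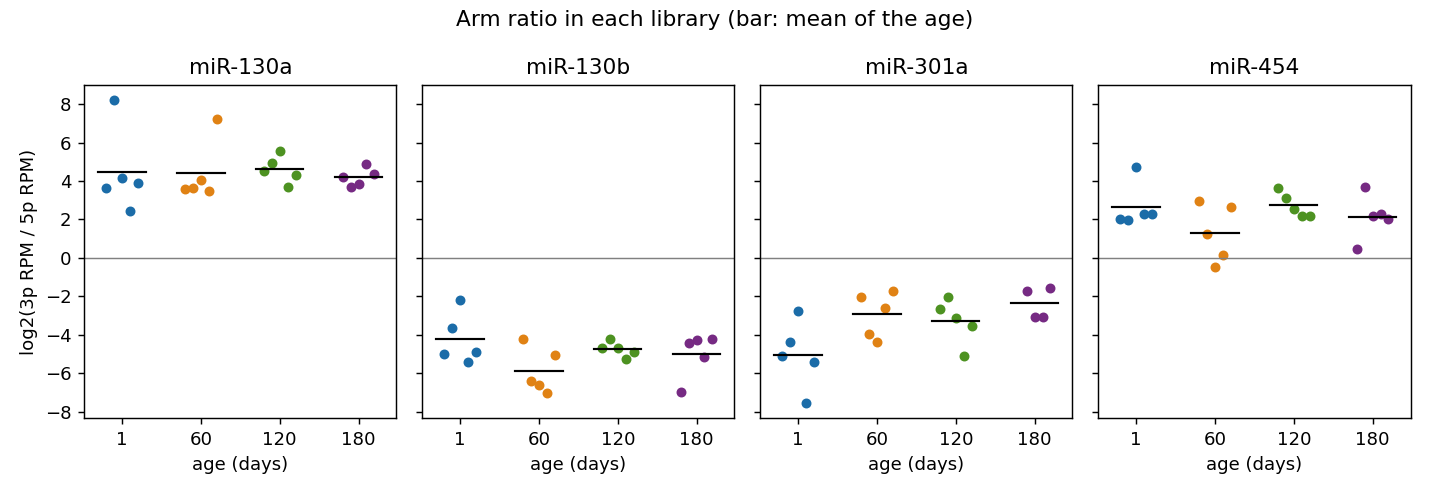
Log2 of the 3p level over the 5p level (y axis) in each library at 4 ages (x axes, days) for the 4 hairpins with both arms in the table. Points are libraries and bars the mean of the age. miR-130a lies above 0 and miR-130b and miR-301a below 0 in every library with a ratio, miR-454 above 0 in 19 of 20.

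Summed over the 4 seed-bearing 3p arms, the level was 75.7 ± 28.1, 53.9 ± 28.4, 61.9 ± 22.8 and 42.3 ± 16.4 RPM in order of age (SD, n = 5). The libraries ranged from 48.9 to 107 RPM on day 1 and from 21.4 to 62.9 RPM on day 180, and the ages overlapped. The 5p arms summed to 176 ± 88.6, 162 ± 84.6, 68.8 ± 22.7 and 55.7 ± 22.2 RPM. Most of the 5p sum was miR-130b-5p and most of the 3p sum was miR-454-3p and miR-130a-3p.

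Members of one locus did not vary together in every case. Across the 20 libraries, Pearson's r of log2(RPM + 1) was 0.71 between miR-301a-3p and miR-454-3p (Spearman's rho 0.67), the seed-bearing arms of the SKA2 locus. It was 0.17 between both arms of miR-301a and -0.15 between both arms of miR-454. By r, miR-301a-3p and miR-454-3p were each only at rank 18 for the other, among 356 tested miRNAs with a known name. miR-130b-3p had an r of 0.77 with miR-130a-3p, 0.60 with miR-301a-5p and 0.56 with its own 5p arm. Without replicate 2 of day 1 these 3 values became 0.63, 0.65 and 0.46. Over the 20 libraries miR-130b-3p was at rank 13 for miR-130a-3p, and miR-130a-3p at rank 26 for miR-130b-3p. All these points share library, age and depth, and the low members rest on few reads, so the values are descriptions. miR-130a-3p and miR-130b-3p, and miR-301a-3p and miR-301b, are close in sequence and can share reads, so the split within each pair is uncertain.

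**Figure D4:**
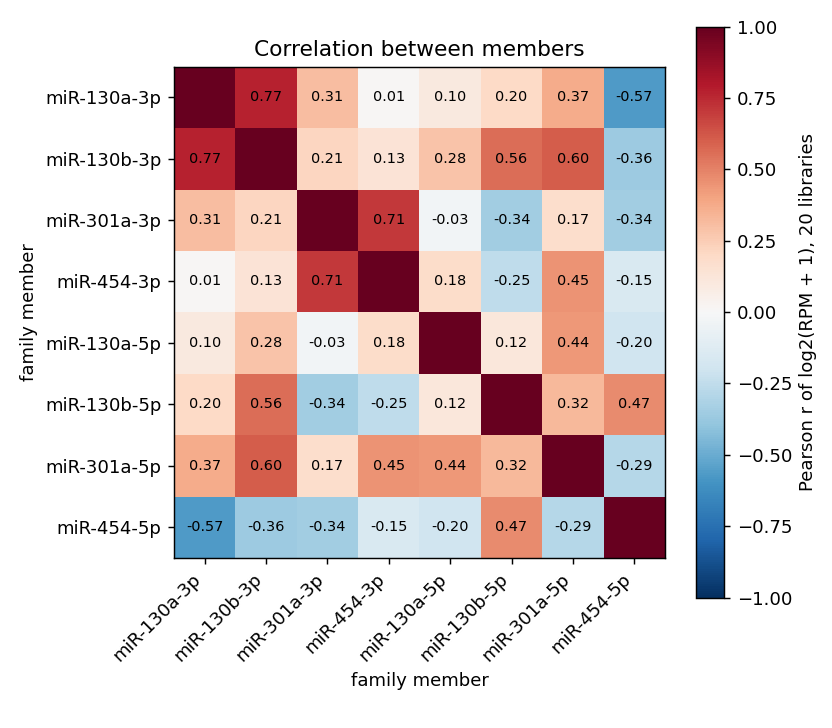
Pearson's r of log2(RPM + 1) over 20 libraries between the 8 tested members (both axes; colour and number give r). The highest values are 0.77 for miR-130a-3p with miR-130b-3p and 0.71 for miR-301a-3p with miR-454-3p, and the lowest is -0.57 for miR-130a-3p with miR-454-5p.

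Among the 356 other tested miRNAs with a known name, those most like miR-130b-3p over the 20 libraries were miR-665 (r = 0.91), miR-193b-3p (0.89), miR-193a (0.89), miR-363-3p (0.87) and miR-144-3p (0.84). Without replicate 2 of day 1 the first 4 kept their ranks, with r from 0.83 to 0.87, and miR-144-3p went to rank 9 (0.76). For miR-130a-3p they were miR-345-5p (0.88), miR-20b (0.86), miR-324-5p (0.85), miR-665 (0.84) and miR-326-3p (0.82). Without that library the first 2 kept their ranks, while miR-324-5p went to rank 7 (0.73), miR-665 to rank 12 (0.71) and miR-326-3p to rank 22 (0.66). For miR-301a-3p they were miR-376a (0.82), miR-136-3p (0.80), miR-345-3p (0.80), miR-194 (0.78) and miR-154b-3p (0.78). For miR-454-3p they were miR-7-3p (0.88), miR-30d-3p (0.84), miR-369-3p (0.84), miR-628-5p (0.80) and miR-103-3p (0.78). Without replicate 2 of day 1, miR-124a went from rank 12 (0.75) to rank 1 (0.89) for miR-454-3p, and miR-30d-3p and miR-628-5p went to ranks 7 and 8. For miR-301a-3p miR-376a stayed at rank 1 (0.88), and the other 4 took ranks from 2 to 8. Some of the miRNAs named here were low, so their r rests on few reads. Their mean levels over the 20 libraries were 0.640 RPM for miR-144-3p, 1.94 for miR-665 and 2.14 for miR-376a.

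Other miRNAs with a seed that overlaps that of the family were taken by name, not by sequence. Of the 6 names listed for this, the table held miR-148a-3p, miR-148b-3p and miR-19b-3p. A miR-19a row without an arm was not matched and so not examined. None of these 3 was called at any age comparison, and miR-148a-3p and miR-148b-3p were far more abundant than the family. miR-148a-3p measured 31491 ± 34480 RPM on day 1 and 41126 ± 14686 RPM on day 180 (SD, n = 5; log2 difference 1.03, SE 0.58, limma adjusted p = 0.32). miR-148b-3p measured 2903 ± 739 and 2931 ± 619 RPM, and miR-19b-3p 27.1 ± 50.3 and 17.6 ± 13.6 RPM.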

How the data were processed

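The authors deposited 1 table of 683 miRNA rows (407 with a goat miRNA name) in RPM. Its column names say TPM, but every low value is a multiple of what 1 read is worth in its library, and dividing by that gave whole numbers, within 0.1 read, for 100% of values below 1000 reads. Per the labels' protocols, Trizol served for extraction and a NEBNext kit for small RNA libraries. Bowtie is named in the submitters' processing notes, while build, catalogue and counter were not given in the sources used. The deposited column of sums over libraries (its unit is other than RPM) was not used. Groups came from the sample titles. The main test was limma 3.58.1 (R 4.3.3; trend, two-sided) on log2(RPM + 1) for the 414 miRNAs at 1 RPM or more in at least 5 of 20 libraries, with 4 age means, no covariate and Benjamini-Hochberg adjustment over all 414 in each comparison. Reads of 2 animals of an age differed by more than sampling noise (smallest chi-square per degree of freedom 357 over 40 pairs). Alternatives were pseudocounts of 0.1 and 5, no filter or one at 10 RPM, median-of-ratios and quantile scaling, no trend, only the ages compared, a replicate block, leaving out each library, and on the recovered reads edgeR 4.0.16 and DESeq2 1.42.0. The tests were tried on simulated data with a fixed spread that was not taken from these libraries. That trial therefore does not measure how they perform here. Named were all members, the 5 known miRNAs most correlated with each 3p member, and members of fixed lists, of which 1 is not reported here; names in the lists were matched exactly, so a row without an arm (miR-19a) was not matched. Members and lists were chosen with earlier results of these data known.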

Additional observations from a re-analysis of the deposited data

Results flagged for a closer look

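In 3 of 43 groups of 5 libraries tested, the lowest or highest library lay far from the other 4, by a gap over 0.71 of the group's range. For 5 independent values of a normal distribution, chance gives this in about 1 group in 20. That rate need not hold for low levels in RPM or for groups that share libraries. A group with reads in only 1 library is flagged in any case. miR-130b-3p on day 60 had its lowest library in replicate 4, at 0.960 RPM, where the other 4 held 2.33 to 2.81 RPM. miR-301a-3p on day 1 had its highest library in replicate 3, at 2.24 RPM, with the other 4 between 0.122 and 0.660 RPM. miR-301b on day 180 was read in replicate 4 alone, at 0.243 RPM from 2 reads, and was at 0 in the other 4.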

How the results depend on the processing

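Over 1756 alternative values of 56 member results, 1647 kept direction and side of the threshold, 42 passed it newly, 10 no longer passed and 57 changed sign. None of the 57 was called, and the largest of them was 0.242 in size. Many of the alternative values could not change direction. Leaving out a library of an age not compared gives the same log2 difference. So do the changes of filter and trend, the replicate block and using only the ages compared. The count of 1647 is therefore not a measure of stability. For miR-130b-3p, day 180 against day 1 was no longer called with a pseudocount of 0.1 (-2.39, adjusted p = 0.0505), without a filter (-1.81, adjusted p = 0.0657) or with only the ages compared (-1.81, adjusted p = 0.163), and over the other alternatives that tested it adjusted p went down to 0.000986 (DESeq2). It was not tested with a filter at 10 RPM. The cause was not tested.

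Newly called for miR-130b-3p against day 1 were day 60 and day 120 with DESeq2 (-1.88 and -2.02), median-of-ratios scaling (-1.32 and -1.45), edgeR with TMM (-1.85 and -1.95) and edgeR on library size (-2.12 and -2.15), and day 120 with quantile scaling (-1.23). Its F test passed with adjusted p of 0.000186 (DESeq2), 0.0273 (median of ratios), 0.0404 (quantile), 0.0106 (TMM) and 0.0187 (library size). For miR-301a-5p, day 60 was called with DESeq2 (-1.38), TMM (-1.40) and a pseudocount of 5 (-0.88), day 120 with DESeq2 (-1.24), and day 180 with DESeq2 (-1.41), library size (-1.53) and a pseudocount of 5 (-0.97), and its F test with DESeq2 (adjusted p = 0.00668). For miR-130b-5p, day 120 (-1.38) and day 180 (-1.45) were called with DESeq2 and day 180 with library size (-1.80), and its F test with DESeq2 (0.00347), TMM (0.032) and library size (0.0316). DESeq2 also called miR-130a-3p on day 120 (-1.09) and miR-454-5p on day 60 (1.34).

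Signs changed as follows. miR-130a-3p from day 60 to day 180 was 0.0406 (DESeq2), 0.0768 (median of ratios), 0.103 (quantile) and 0.0664 (TMM). miR-130b-5p from day 1 to day 60 was 0.223 (DESeq2), 0.0379 (quantile) and 0.185 (TMM). miR-301a-3p from day 120 to day 180 was 0.0832 (DESeq2), 0.0364 (median of ratios), 0.03996 (quantile) and 0.0611 (TMM). miR-130a-5p from day 60 to day 180 was 0.00954 (median of ratios), 0.0342 (quantile) and 0.0668 (pseudocount of 0.1). miR-301a-5p from day 60 to day 180 was 0.00156 (quantile) and 0.0121 (TMM), and miR-454-3p from day 1 to day 180 was 0.191 (quantile).

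The count of called miRNAs against day 1 was 16 on day 60, 14 on day 120, 14 on day 180 and 8 in the F test. In that order it was 40, 36, 23 and 30 with median-of-ratios scaling, 32, 38, 25 and 27 with quantile scaling, 57, 43, 22 and 39 with TMM, 62, 35, 48 and 53 with library size, and 86, 74, 61 and 90 with DESeq2. With only the ages compared it was 4, 4 and 5. Without a filter it was 9 on day 60 and 8 on day 180, and on day 180 it was 7 with a pseudocount of 0.1 and 5 with a filter at 10 RPM. The higher share of calls on day 60 went from 18.8% to between 27.4% (library size) and 38.4% (DESeq2). On day 120 it went from 42.9% to between 17.1% (library size) and 50% (quantile), and on day 180 from 21.4% to between 8.33% (library size) and 48% (quantile). The median of all tested miRNAs on day 180 against day 1 moved from -0.25 to 0.0076 with quantile scaling.

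The replicate numbers showed no clear sign of pairing the animals. Same-number pairs had correlations of deviations from -0.71 to 0.54, over 0.1 in 11 of 30 pairs, and 4 of 20 libraries correlated best with their own number. Levels alone cannot tell whether the animals were paired by design. With a replicate block, day 60 (-1.43, adjusted p = 0.045), day 120 (-1.51, adjusted p = 0.0345) and the F test (adjusted p = 0.0484) of miR-130b-3p passed, no other member call changed, and counts were 21, 18, 14 and 9.

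Leaving out 1 library at a time, the lowest and highest counts were 2 and 43 on day 60 (without replicate 4 of day 60 and of day 1), 7 and 29 on day 120, 5 and 31 on day 180, and 5 and 16 in the F test. Against day 1, miR-130b-3p ranged from -1.73 to -1.11 (day 60), -1.81 to -1.19 (day 120) and -2.11 to -1.49 (day 180), with F test adjusted p from 0.0395 to 0.293. miR-130b-5p ranged from -0.39 to 0.16 (day 60) and -1.91 to -1.48 (day 180), miR-301a-5p from -1.48 to -1.205 (day 180) and miR-301a-3p from -0.00117 to 0.44 (day 180). miR-454-3p ranged from -0.24 to 0.38 (day 60), and miR-454-5p from 0.89 to 1.36 (day 60) and -0.14 to 0.33 (day 180). Day 120 against day 60 ranged from -0.30 to 0.10 for miR-130a-3p, -0.30 to 0.11 for miR-130b-3p, -0.27 to 0.15 for miR-301a-3p and -0.10 to 0.27 for miR-301a-5p. Day 180 against day 120 ranged from -0.0807 to 0.0986 for miR-130a-3p and -0.19 to 0.22 for miR-301a-3p. Day 180 against day 60 ranged from -0.30 to 0.10 for miR-130a-3p, -0.20 to 0.13 for miR-130a-5p, -0.29 to 0.15 for miR-301a-3p and -0.34 to 0.0195 for miR-301a-5p. Depth limits miR-130a-5p, miR-301a-3p and miR-301b, which lay near 3 reads in many libraries. It also limits miR-130b-3p, the called member, which had 3 to 21 reads per library on day 180.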
